A study of Mus musculus with 6 samples.

Results

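The subunits of oxidative phosphorylation were followed as mRNAs in neural stem cells sorted from the adult mouse brain, by respiratory complex and by the genome that encodes them. Members were the protein-coding genes whose symbols begin with mt-Nd, mt-Co, mt-Cytb, mt-Atp, Uqcr, Atp5, Cox4 to Cox8 or the Nduf subunit letters followed by a number, together with Sdha to Sdhd. This gave 98 genes of the 32564 genes with a transcript in the files, of which 13 lie in the mitochondrial genome and 85 in the nuclear genome. Complex I had 7 mitochondrial and 37 nuclear members, complex II had 4 nuclear members, complex III had 1 mitochondrial and 8 nuclear, complex IV had 3 mitochondrial and 18 nuclear, and complex V had 2 mitochondrial and 18 nuclear. The symbols and not the levels chose the members.

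The antagomir libraries came from mice that received an antagomir, a modified oligonucleotide that blocks a microRNA, against miR-204 in the brain ventricles, and the vehicle libraries from mice that received aCSF, the artificial cerebrospinal fluid used as vehicle. Each group had 3 libraries. The treatment protocol label names the antagomir for all 6 libraries, so the groups follow the titles and the treatment group labels, which differ between them. All 6 libraries were made from cells that the labels call quiescent neural stem cells, taken from the subependymal zone and sorted by flow cytometry from gfap:GFP transgenic mice aged 3 months, 3 days after injection. The gfap promoter that drives GFP is also active in astrocytes, the strain label reads C56BL/6J, no control oligonucleotide is named, and the level of miR-204 was not measured here. Whether the 3 libraries of a group stand for separate mice or pools is not given in the labels, so the p-values speak only of the spread among these 6 libraries.

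Oxidative phosphorylation moves electrons from NADH and succinate through complexes I to IV to oxygen, and complex V uses the resulting proton gradient to make ATP. Complexes I, III, IV and V are built from subunits of both genomes, while complex II is encoded in the nucleus alone. The mitochondrial genome is transcribed as long precursors that are cut into mRNAs. mt-Atp8 overlaps mt-Atp6 in position and mt-Nd4l overlaps mt-Nd4, and each pair stays on a shared mRNA. Nuclear subunit genes are read one by one, many of them under the transcription factors NRF1, GABP (an ETS factor) and YY1. Quiescent neural stem cells are known for relying more on glycolysis and fatty acid oxidation, and a shift towards oxidative phosphorylation accompanies the path to neurons.

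The estimated counts per library ran from 14866453 to 19694409, and 17205 to 17993 genes had at least 1 count. The defining astrocyte and stem cell gene Gfap averaged 237 ± 57.1 CPM in antagomir libraries and 370 ± 184 CPM in vehicle libraries (SD, n = 3 each), where CPM is the count scaled by library size and edgeR's TMM factor. Genes of other cell types were present: the summed level of 7 oligodendrocyte genes was 14580 to 20590 CPM in antagomir libraries and 9050 to 18880 CPM in vehicle libraries. That of 10 astrocyte genes was 7129 to 10450 CPM in antagomir libraries and 9810 to 10900 CPM in vehicle libraries. In bulk RNA, fewer cells of a type and less RNA per cell cannot be told apart.

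Because the injected agent targets miR-204, the mature microRNA and the members' matches to its seed are shown first. The capitals mark the seed, bases 2 to 8 of miR-204-5p (RefSeq, GRCm38.p6, chr19:22750610-22750631, plus strand), and in the sites the letters that pair with it, with the A that faces base 1 where it is present.
miR-204-5p: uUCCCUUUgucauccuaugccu
Cox5a site: ggactttaatAAAGGGAAatgagtttga
Cox6a1 site: cccaggcaacAAAGGGAccacagcactg
Of 80 tested nuclear members whose annotated 3′ UTR was searched, 2 held a match (2.5%), against 1948 of 14320 tested protein-coding genes (13.6%). The members' 3′ UTRs were also shorter, with a median of 141.5 bases against 888 bases over all genes searched, and the shares were not corrected for this. The Cox5a match lies at chr9:57532403-57532410 on the plus strand and the Cox6a1 match at chr5:115345810-115345816 on the minus strand (GRCm38). Cox5a had a log2 fold change of -0.27 and Cox6a1 of -0.10, antagomir over vehicle. A match is a description of the letters and not evidence of binding.

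The mitochondrial mRNAs stood far above the nuclear ones in every complex that has both. In TPM, a level per transcript length, the 13 mitochondrial genes had mean levels over all 6 libraries from 732 TPM (mt-Nd3) to 15730 TPM (mt-Co3), with a median of 3699 TPM. These ranks depend on how reads were split with the near-identical nuclear copies described below. With the copies added, mt-Nd3 held a mean of 2.07% of the summed mitochondrial TPM in antagomir libraries and 2.14% in vehicle libraries. That was above mt-Nd5 (1.44 and 1.59%) and mt-Nd6 (1.19 and 1.17%). On the same measure mt-Co1 held 18.5 and 18.3%, against 19.7 and 20.7% for mt-Co3. The median nuclear member had 187 TPM and the highest, Cox8a, had 923 TPM. Over the 80 tested nuclear members the median was 195 TPM, against 20.9 TPM over all 15012 genes tested. Within complex I the median was 1576 TPM for mitochondrial and 168 TPM for nuclear members. Within complex III it was 7298 TPM for mt-Cytb alone and 237 TPM for nuclear members. Within complex IV it was 8276 TPM for mitochondrial and 158 TPM for nuclear members, and within complex V 8110 TPM for mitochondrial and 225.5 TPM for nuclear members. The mitochondrial value of complex V lies midway between mt-Atp6 (12520 TPM) and mt-Atp8 (3699 TPM). The mt-Atp8 transcript has 204 bases, short for pairs of 100-base reads, which limits its TPM and the median of 3699 TPM. The complex IV nuclear median counts tissue forms at or near 0, such as Cox8b and Cox8c, and over its tested members it was 294 TPM. The 4 complex II genes, which have no mitochondrial partner, had a median of 194 TPM. All 13 mitochondrial members passed the filter on low counts, and 80 of the 85 nuclear members did.

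**Figure D1:**
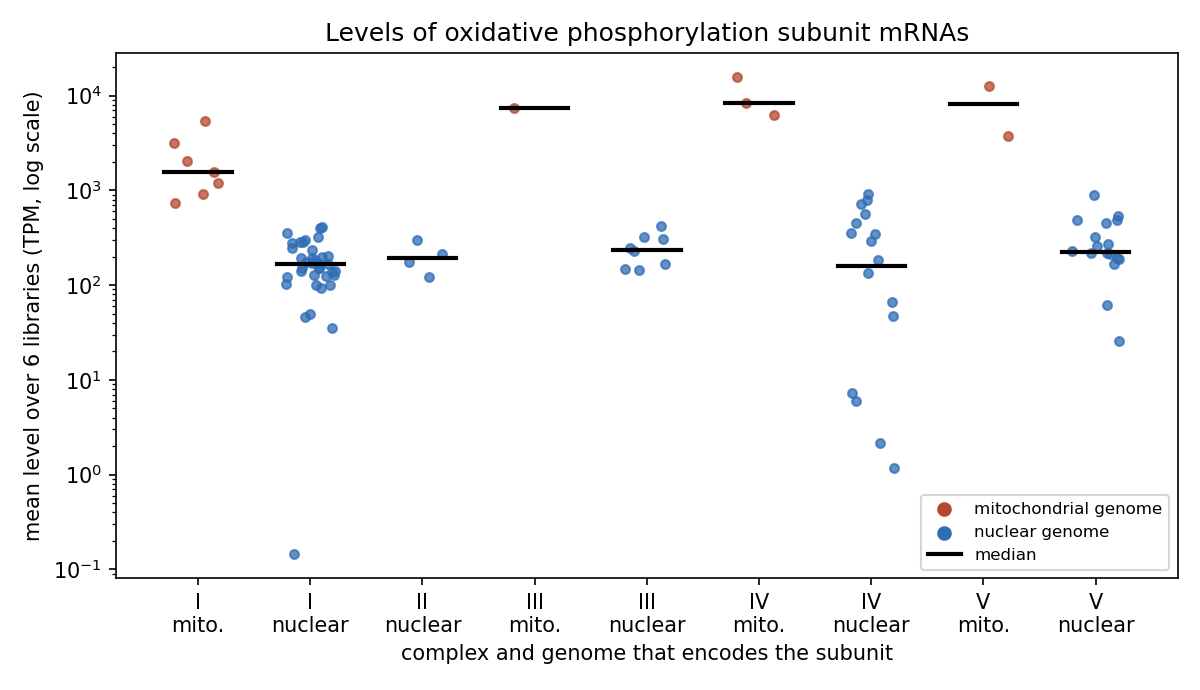
Mean TPM over the 6 libraries (log axis) of each member, by complex and encoding genome, with the median as a bar; members at 0 are not drawn but count in the median. The mitochondrial points lie between 732 and 15730 TPM and the nuclear ones reach at most 923 TPM.

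No member, and no gene of the whole table, differed between antagomir and vehicle libraries at an adjusted p under 0.05 in edgeR's quasi-likelihood test (0 of 15012 genes, 0%). The lowest adjusted p of the table was 0.949. Before adjustment 616 genes had a p under 0.05, of which 289 were lower in antagomir libraries (1.93% of genes tested). The 3 members mt-Nd5, mt-Co1 and mt-Co3 were among these. DESeq2 called 1 gene of the table and no member. The sizes below are therefore descriptions with their errors. Of the 93 tested members, 86 had a negative log2 fold change, against 50.9% of all genes tested, with a median of -0.13 against -0.01. In 13 members the 3 antagomir libraries all lay below the 3 vehicle libraries in CPM, and in no member did they all lie above. Over all genes tested those shares were 5.45% and 5.07%. The unit mattered for this count. In TPM, where each library sums to the same total without TMM scaling, the groups of 3 members (Cox5a, Ndufs3 and Uqcrb) did not overlap, all lower in antagomir libraries, against 3.7% of all genes lower and 7.05% higher. By limma on TPM 69 of the 93 members were negative, against 43.9% of all genes. The members share libraries and often vary together from library to library, so these counts carry no test.

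**Figure D2:**
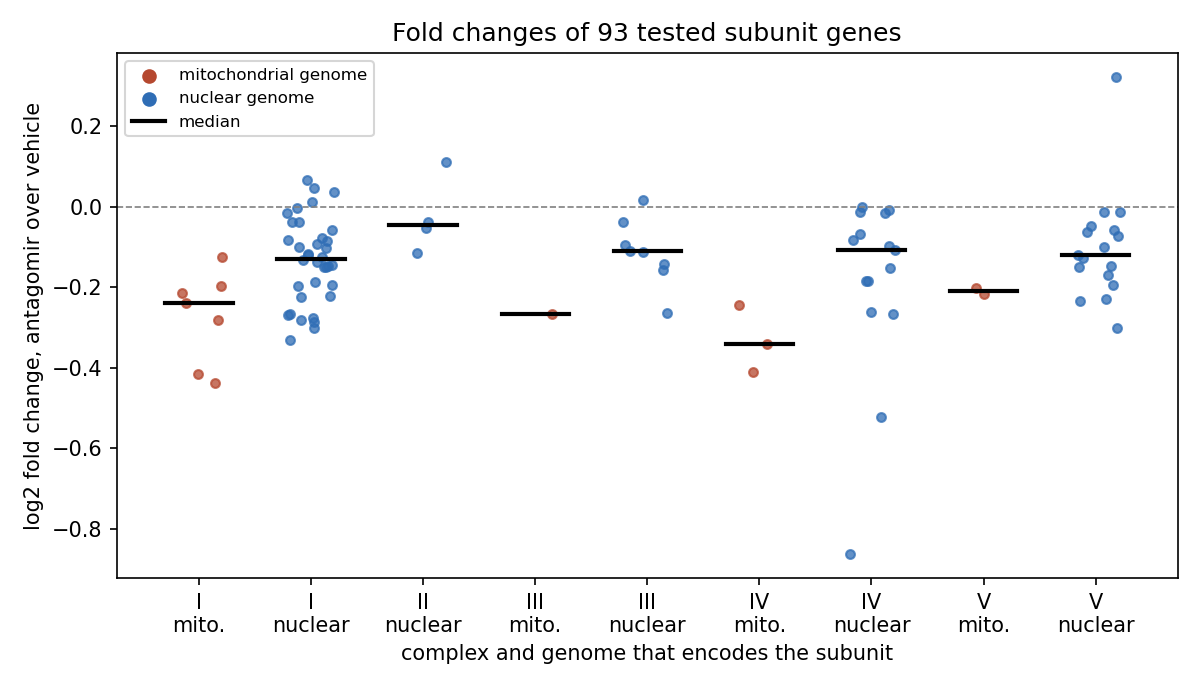
Log2 fold change, antagomir over vehicle, of the 93 tested members by complex and encoding genome, with the median of each set as a bar. The 13 mitochondrial points lie between -0.44 and -0.12, and the nuclear points between -0.86 (Cox6a2) and 0.32 (Atp5s).

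All 13 mitochondrial genes had negative fold changes, with a median of -0.24 and a range of -0.44 to -0.12. The 7 complex I genes encode core subunits of the proton-pumping membrane arm. mt-Nd5 had 1041, 1141 and 913 CPM in antagomir libraries, against 1546, 1101 and 1478 CPM in vehicle libraries. The groups overlapped, since vehicle library 2 lay among the antagomir libraries. Its log2 fold change was -0.41 ± 0.17 (SE), with a 95% interval of -0.80 to -0.03 and an adjusted p of 0.949 in edgeR. mt-Nd4l showed a like size, -0.44 ± 0.20 (SE), from 118, 134 and 96.6 CPM in antagomir libraries and 176.5, 122 and 174 CPM in vehicle libraries. mt-Nd4 had -0.28 ± 0.18, mt-Nd1 -0.20 ± 0.17, mt-Nd2 -0.22 ± 0.17 and mt-Nd3 -0.12 ± 0.18 (log2 fold change ± SE). For mt-Nd6, the one member transcribed from the other strand of the mitochondrial genome, the value was -0.24 ± 0.20, in a protocol that does not mark strand, so that transcripts of the opposite strand cannot be told apart from it. The value of mt-Nd3 was 0.01 without antagomir library 3, the one sign change among the mitochondrial genes under any setting tried.

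mt-Cytb, the cytochrome b of complex III and its sole mitochondrial subunit, had 4351, 4018 and 3519 CPM in antagomir libraries, against 5368, 4043 and 4876 CPM in vehicle libraries. Its log2 fold change was -0.27 ± 0.15 (SE). Antagomir library 1 lay above vehicle library 2, so the groups overlapped.

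The 3 mitochondrial mRNAs of complex IV encode its catalytic core. mt-Co1, which carries the site of oxygen reduction (chrM:5328-6872 in GRCm38), had 4934, 4643 and 3947 CPM in antagomir libraries, against 6951, 4907 and 6109 CPM in vehicle libraries. The lowest vehicle library lay just under the highest antagomir library. Its log2 fold change was -0.41 ± 0.17 (SE, 95% interval -0.79 to -0.03, adjusted p = 0.949, edgeR). mt-Co3 (chrM:8607-9390) had the highest mean TPM of the members before nuclear copies were added. It had 5580, 5193 and 4942 CPM in antagomir libraries, against 7515, 5625 and 6771 CPM in vehicle libraries. It was the one mitochondrial gene whose groups did not overlap in CPM, while in TPM they did, with 15200 TPM in antagomir library 1 and 14910 TPM in vehicle library 2. It had a log2 fold change of -0.34 ± 0.15 (SE, 95% interval -0.68 to -0.01, adjusted p = 0.949, edgeR). mt-Co2, which receives electrons from cytochrome c, had -0.24 ± 0.17 (SE).

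mt-Atp6 and mt-Atp8, the membrane subunits of ATP synthase whose reading frames overlap, had log2 fold changes of -0.22 ± 0.17 and -0.20 ± 0.18 (SE). mt-Atp6 had 4115, 3671 and 3124 CPM in antagomir libraries, against 4889, 3492 and 4302 CPM in vehicle libraries, with overlapping groups.

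The values of 7 of the 13 mitochondrial genes are limited by near-identical copies in the nuclear genome. Of its 31-base words, the default word length by which kallisto assigns reads, mt-Co2 shared 100% with other genes, mt-Co3 99.9%, mt-Atp6 99.5%, mt-Nd4l 98.9%, mt-Nd3 98.1%, mt-Co1 63.9% and mt-Nd4 62.8%. The other 6 shared less, with 16.8% for mt-Nd5, 13.5% for mt-Nd2, 7.47% for mt-Atp8, 7.36% for mt-Nd6, 6.55% for mt-Cytb and 0% for mt-Nd1. Gm29216, a pseudogene on chromosome 1 with 97.2% of its words in mt-Co1, was given 7971 ± 1481 TPM in antagomir libraries and 8337 ± 1322 TPM in vehicle libraries (SD, n = 3 each), more than mt-Co1 itself. Gm28438, a copy of mt-Nd3 sequence, had 786 ± 83.9 TPM in antagomir libraries and 1029 ± 83.3 TPM in vehicle libraries. When the counts of each of 7 such copies were added to its mitochondrial gene, a choice made after seeing the data, the log2 fold change of mt-Co1 was -0.35 and that of mt-Nd3 -0.31, and the median of the 13 was -0.27. Each of these 7 copies had at least 97.2% of its own words in its mitochondrial gene. Gm13340, Gm13339 and Gm4076, which shared the most words with mt-Co1, mt-Nd2 and mt-Nd5, were not among the 7 and were not added. The share of mt-Co1 depended on the copies. mt-Co1 made up 8.49, 8.74 and 8.56% of the summed mitochondrial TPM in antagomir libraries and 9.53, 9.29 and 9.41% in vehicle libraries, without overlap. With the copies added the shares were 19.2, 17.9 and 18.3% in antagomir libraries and 18.7, 18.5 and 17.8% in vehicle libraries, which overlap.

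Complex I has its nuclear subunits in the electron-accepting matrix arm and around the membrane arm. Of its 36 tested nuclear members, 32 had negative fold changes, with a median of -0.13. The groups of 7 did not overlap in CPM, all lower in antagomir libraries, against 5.45% of all genes tested. Ndufs7, a core subunit that holds the last iron-sulfur cluster before ubiquinone, had 79.2, 95.8 and 94.4 CPM in antagomir libraries, against 114, 117 and 97.5 CPM in vehicle libraries. The groups were separated by a narrow gap in CPM and overlapped in TPM, and its log2 fold change was -0.28 ± 0.15 (SE, adjusted p = 0.949, edgeR). Ndufs3, another core subunit of the matrix arm, had 64.1, 57.6 and 56.3 CPM in antagomir libraries, against 67.0, 69.6 and 79.7 CPM in vehicle libraries, a log2 fold change of -0.28 ± 0.15 (SE). The accessory subunits Ndufa2, Ndufa6, Ndufa12, Ndufb2 and Ndufb4 were the other 5 without overlap in CPM, with log2 fold changes from -0.33 (Ndufb4) to -0.19 (Ndufa2). In TPM the groups of all 5 overlapped, and of the 7 only those of Ndufs3 did not. Ndufa4, listed here by its name although the protein is now placed in complex IV, was the most abundant at 407 TPM and had a log2 fold change of -0.12 ± 0.18 (SE). Ndufa11, a membrane arm subunit, was the lowest tested at 35.4 TPM, with -0.10 ± 0.16. Ndufb7, Ndufb8, Ndufb10 and Ndufv1 had positive values, none above 0.07.

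Complex II, succinate dehydrogenase, links the tricarboxylic acid cycle to the chain, and its 4 genes had a median of -0.05, the closest to 0 of the 5 complexes. Sdha, the flavoprotein that oxidizes succinate, had 539, 428 and 474 CPM in antagomir libraries, against 450.5, 449 and 434 CPM in vehicle libraries. Antagomir library 1 was highest and the groups overlapped, with a log2 fold change of 0.11 ± 0.13 (SE, adjusted p = 0.953, edgeR). Sdhb, the iron-sulfur subunit, had -0.11 ± 0.13, and the membrane anchors Sdhc and Sdhd had -0.05 ± 0.15 and -0.04 ± 0.15 (log2 fold change ± SE).

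Of the 8 nuclear complex III members, 7 had negative fold changes, with a median of -0.11. Uqcrb, a subunit close to the quinone site, had 47.1, 45.9 and 48.5 CPM in antagomir libraries, against 56.1, 52.4 and 61.3 CPM in vehicle libraries. These groups overlapped neither in CPM nor in TPM, and the log2 fold change was -0.26 ± 0.15 (SE, adjusted p = 0.949, edgeR). Uqcrc2, a core protein of the matrix side, had groups that did not overlap in CPM, with -0.16 ± 0.13. Uqcr11 was the most abundant at 423 TPM, with -0.11 ± 0.18. Uqcrfs1, the Rieske iron-sulfur protein, was the lowest of the tested at 143 TPM and had a value near 0, 0.02 ± 0.13.

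All 15 tested nuclear members of complex IV had negative fold changes, with a median of -0.11 and values from -0.86 to just under 0. Those nearest 0 were Cox7a2l (-0.0001), Cox7c (-0.0079), Cox7b (-0.0120) and Cox7a2 (-0.0145), and their direction depended on the unit. In TPM their antagomir means were above their vehicle means, as with Cox7c at 301 TPM against 287 TPM. The other tested members had lower TPM means in antagomir libraries. Cox5a, a subunit on the matrix side, had 106, 94.6 and 105 CPM in antagomir libraries, against 113, 131 and 124 CPM in vehicle libraries. Cox6c, a membrane subunit, had 127, 113 and 100.0 CPM in antagomir libraries, against 133, 135 and 139 CPM in vehicle libraries. Neither gene's groups overlapped in CPM, and in TPM those of Cox6c did and those of Cox5a did not. The adjusted p was 0.949 for each in edgeR, and the log2 fold changes were -0.27 ± 0.13 and -0.26 ± 0.14 (SE). The largest size, -0.86 for the muscle subunit Cox6a2, came with a standard error of 1.03 and a mean level of 2.14 TPM.

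Of the 17 tested nuclear members of complex V, 16 had negative fold changes, with a median of -0.12. Atp5c1, the central stalk subunit, had 161, 137 and 143 CPM in antagomir libraries, against 183, 155 and 181 CPM in vehicle libraries, a log2 fold change of -0.23 ± 0.14 (SE). Antagomir library 1 lay within the vehicle values. Atp5h, a subunit of the peripheral stalk, had -0.19 ± 0.14, and Atp5j, which couples that stalk to the membrane part, had groups that did not overlap in CPM, with -0.13 ± 0.12. Atp5b, the catalytic subunit and the most abundant of the complex at 891 TPM, had 885, 819 and 902 CPM in antagomir libraries, against 944, 883 and 894 CPM in vehicle libraries, which is -0.06 ± 0.12. Atp5s, a coupling factor and the lowest of the tested at 25.7 TPM, had the largest positive value, 0.32 ± 0.31. It had 24.8, 22.6 and 21.2 CPM in antagomir libraries, against 21.8, 22.4 and 10.7 CPM in vehicle libraries, so vehicle library 3 alone lay apart.

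**Figure D3:**
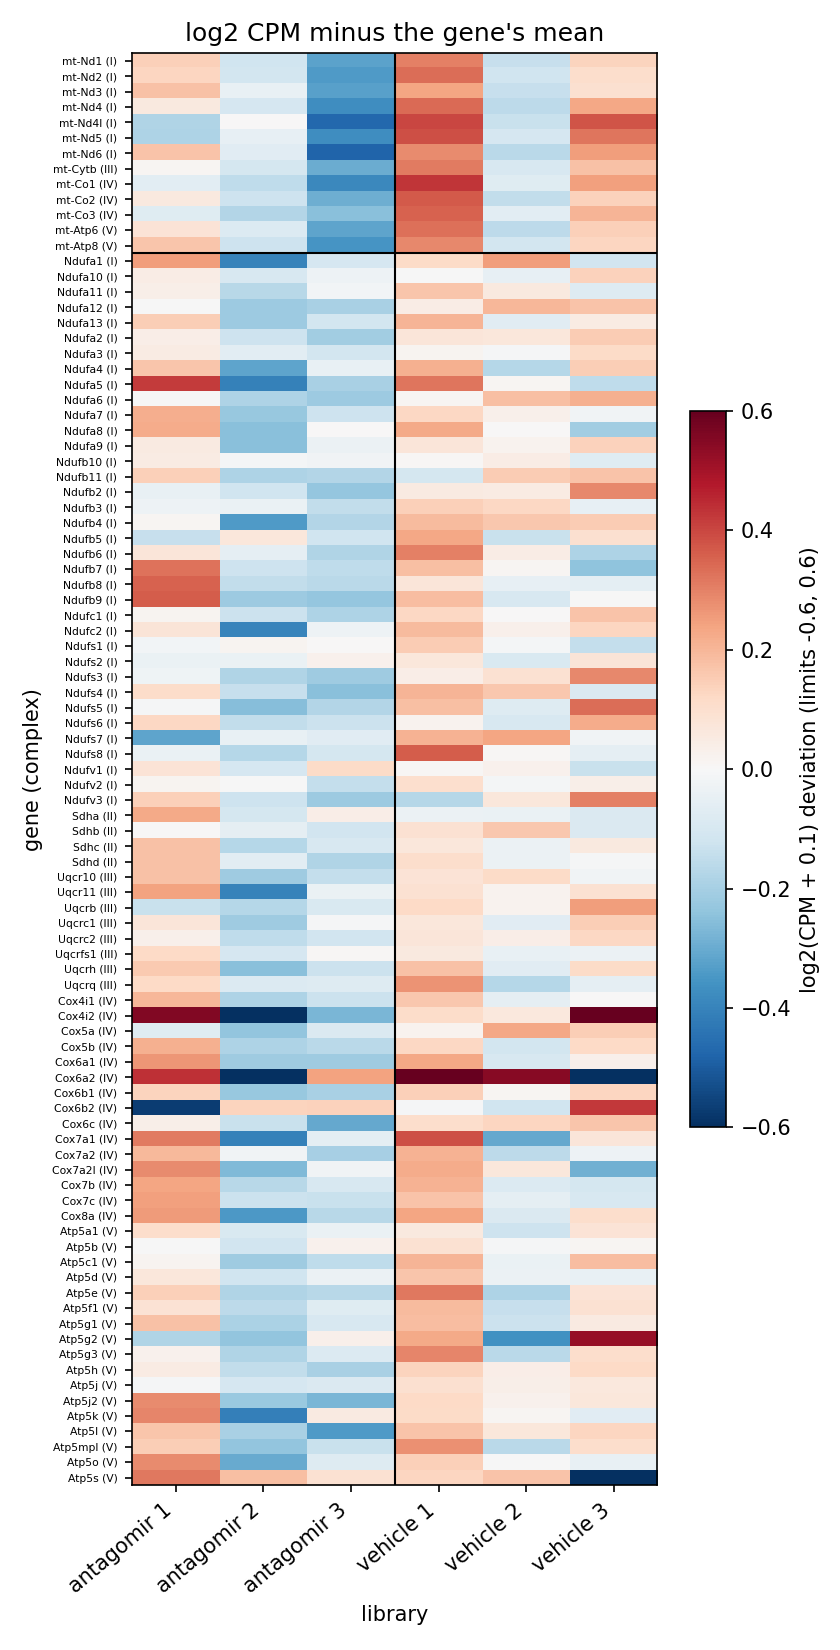
Log2(CPM + 0.1) of the 93 tested members in each library minus the gene's mean over the 6 libraries, mitochondrial genes above the line and nuclear genes below it. Vehicle library 1 is highest and antagomir library 3 lowest for all 13 mitochondrial genes, and antagomir library 2 is lowest for 44 of 80 nuclear genes.

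The members varied together from library to library within a group. Vehicle library 1 had the highest log2 CPM for 13 of 13 mitochondrial genes and antagomir library 3 the lowest for 13 of 13. Taking the median over the 13 genes of the deviation from each gene's mean, the antagomir libraries lay at 0.06, -0.10 and -0.34, against 0.34, -0.13 and 0.17 in the vehicle libraries (log2 CPM). Vehicle library 2 thus lay below 2 of the 3 antagomir libraries. For the 80 nuclear genes the same median was 0.11, -0.17 and -0.12 in antagomir libraries, against 0.13, 0.00 and 0.07 in vehicle libraries. Antagomir library 1 was the highest library for 25 nuclear genes and vehicle library 1 for 30, while antagomir library 2 was the lowest for 44. Without antagomir library 2 the nuclear median fold change was -0.04 and 68 members were negative, and without vehicle library 1 the nuclear median was -0.06 and 67 members were negative. Without antagomir library 1 the nuclear median was -0.22. The mitochondrial median was -0.15 without antagomir library 3 and also without vehicle library 1, and -0.37 without vehicle library 2 and -0.35 without antagomir library 1. The complex II median was 0.02 without antagomir library 3 and 0.01 without antagomir library 2.

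**Figure D4:**
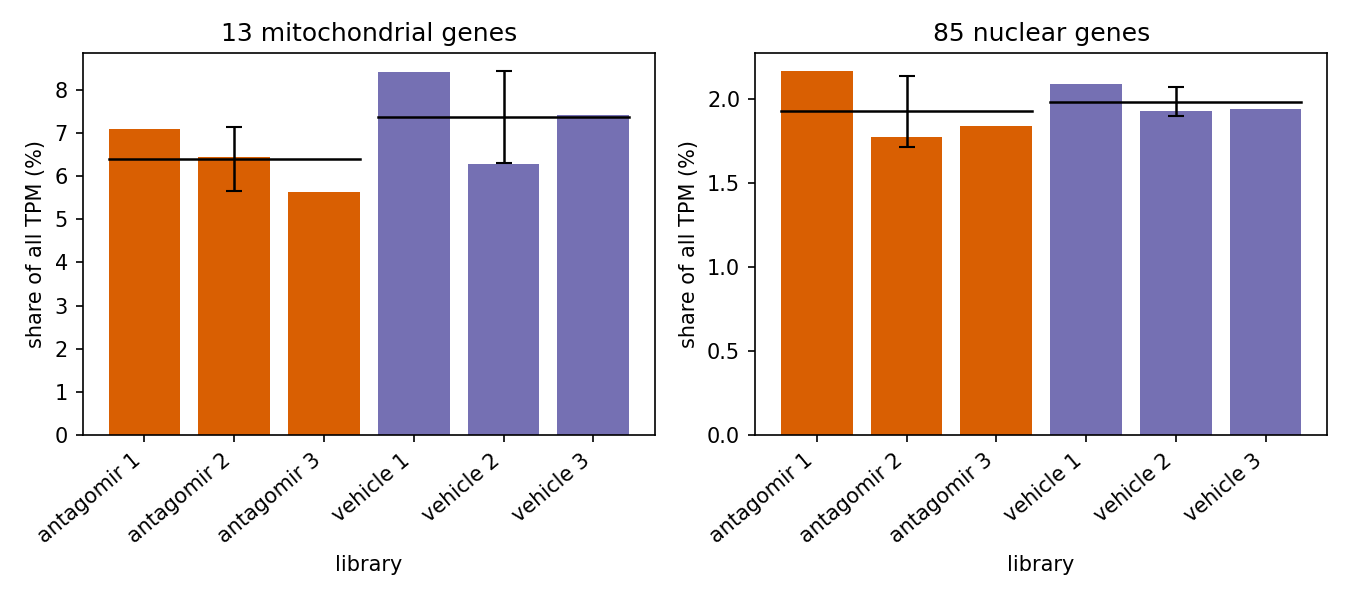
Share of all TPM, in percent, from the 13 mitochondrial members (left) and the 85 nuclear members (right) in each library, with the group mean as a line and its SD as an error bar (n = 3 each). The mitochondrial bars run from 5.62 to 8.40% and the nuclear bars from 1.77 to 2.17%, with overlapping groups in both panels.

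As a share of all transcripts (TPM), the 13 mitochondrial genes made up 7.10, 6.44 and 5.62% in antagomir libraries, against 8.40, 6.28 and 7.41% in vehicle libraries. The mean was 6.39 ± 0.740% in antagomir libraries and 7.37 ± 1.06% in vehicle libraries (SD, n = 3 each), a difference of -0.98 percentage points, antagomir minus vehicle, and the groups overlapped. Leaving out 1 library moved it between -1.52 (without vehicle library 2) and -0.46 (without vehicle library 1). The nuclear members made up 2.17, 1.77 and 1.84% in antagomir libraries, against 2.09, 1.93 and 1.94% in vehicle libraries. The ratio of mitochondrial to nuclear summed TPM was 3.32 ± 0.294 in antagomir libraries and 3.70 ± 0.399 in vehicle libraries (SD, n = 3 each), with overlapping ranges. By complex, the mitochondrial part of complex IV took 2.75 ± 0.243% of TPM in antagomir libraries and 3.29 ± 0.478% in vehicle libraries, and that of complex I took 1.41 ± 0.209% in antagomir libraries and 1.60 ± 0.234% in vehicle libraries.

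Cell type genes varied between the same libraries, and none passed the test. The 9 genes of microglia and macrophages all had negative values, and their sum was 97.5 to 263 CPM in antagomir libraries and 130 to 1927 CPM in vehicle libraries, the highest in vehicle library 1. The 5 red cell genes, all negative, summed to 13.4 to 274 CPM in antagomir libraries and 127 to 903 CPM in vehicle libraries, with the lowest in antagomir library 3 and the highest in vehicle library 1. All 9 neuroblast genes were positive, at 883 to 2068 CPM in antagomir libraries and 541 to 1341 CPM in vehicle libraries, and all 7 oligodendrocyte genes were positive, while all 10 astrocyte genes were negative with a median of -0.31. The 5 ependymal genes, all negative, summed to 1014 to 1700 CPM in antagomir libraries and 1492 to 1894 CPM in vehicle libraries. The 5 cell division genes, all positive with a median of 0.99, summed to 270 to 341 CPM in antagomir libraries and 91.4 to 307 CPM in vehicle libraries. The 4 oligodendrocyte precursor genes, all positive with a median of 1.18, summed to 97.0 to 196 CPM in antagomir libraries and 24.1 to 102 CPM in vehicle libraries. The 4 neuron genes, 3 positive and 1 negative, summed to 87.0 to 183 CPM in antagomir libraries and 80.2 to 153 CPM in vehicle libraries. The 4 endothelial genes summed to 4.87 to 10.6 CPM in antagomir libraries and 6.14 to 15.2 CPM in vehicle libraries, with Cdh5 at 0 in 5 libraries. The 4 choroid plexus genes summed to 15.9 to 36.5 CPM in antagomir libraries and 26.8 to 39.5 CPM in vehicle libraries, most of it from Folr1. The part of these cells in the values of the members was not tested.

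The spread among libraries of a group was smaller for the members than for the typical gene. The median within-group SD of log2 CPM was 0.22 for mitochondrial and 0.17 for nuclear members, against 0.33 over all genes tested. Over the 6714 genes between the 10th and the 90th percentile of the nuclear members' levels it was 0.24, and most mitochondrial members lie above that range.

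Several complex IV subunits exist in forms made by separate genes, one widespread and others known from heart and muscle, lung or testis. The widespread forms carried most of the mRNA. Cox4i1 had a mean of 793 TPM over the 6 libraries and its lung and low-oxygen form Cox4i2 had 5.99 TPM. Cox6a1 had 710 TPM and the heart and muscle form Cox6a2 2.14 TPM. Cox7a2 had 183 TPM, the heart and muscle form Cox7a1 7.28 TPM, and the related gene Cox7a2l 66.8 TPM. Cox7a2l is described as joining complexes III and IV in supercomplexes, and whether it does so in this strain was not tested. Cox8a had 923 TPM, while the muscle form Cox8b and the testis form Cox8c had no count in any library, which allows up to 0.153 to 0.203 CPM, the worth of 3 counts in each library, for counting error only. Cox7b had 134 TPM and the testis form Cox7b2 1.17 TPM, with 4.78 TPM in vehicle library 1 and 1.78 TPM in antagomir library 3 as its highest values. Cox6b2, known from testis, was less rare at 47.3 TPM against 454 TPM for Cox6b1. Ndufa4 had 407 TPM and its low-oxygen relative Ndufa4l2 0.144 TPM. The 3 genes for the same c-ring protein of ATP synthase had 449 TPM (Atp5g3), 220 TPM (Atp5g1) and 61.2 TPM (Atp5g2). Cox4i2, with 2.80, 0.736 and 1.53 CPM in antagomir libraries against 2.03, 1.96 and 3.30 CPM in vehicle libraries, and Cox7a1 had overlapping groups, with log2 fold changes of -0.52 ± 0.68 and -0.11 ± 0.67 (SE). The members that were not tested were Cox7b2, Cox8b, Cox8c, Ndufa4l2 and a read-through locus at Atp5o that had no count.

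**Figure D5:**
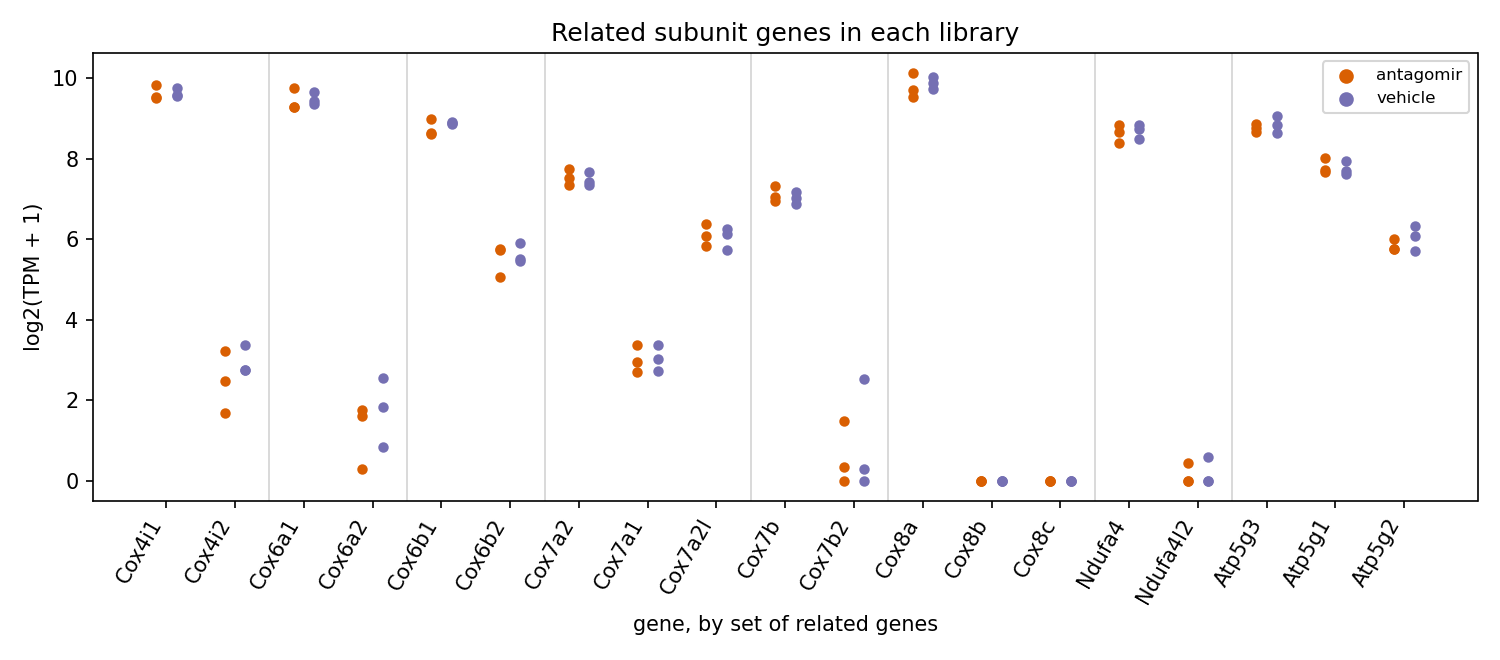
Log2(TPM + 1) in each library for subunits encoded by several genes, with antagomir libraries left of vehicle libraries. Cox8b and Cox8c sit at 0 in all 6 libraries, and in each complex IV set the widespread form lies above its relatives in both groups.

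The promoters of the most abundant nuclear member and of its undetected relative are shown for their difference in CG pairs. Capitals mark each CG pair in the 250 bases before and 50 bases after the start (RefSeq, GRCm38.p6), on the minus strand of chr19:7217567-7217866 for Cox8a and of chr7:140900397-140900696 for Cox8b.
Cox8a promoter: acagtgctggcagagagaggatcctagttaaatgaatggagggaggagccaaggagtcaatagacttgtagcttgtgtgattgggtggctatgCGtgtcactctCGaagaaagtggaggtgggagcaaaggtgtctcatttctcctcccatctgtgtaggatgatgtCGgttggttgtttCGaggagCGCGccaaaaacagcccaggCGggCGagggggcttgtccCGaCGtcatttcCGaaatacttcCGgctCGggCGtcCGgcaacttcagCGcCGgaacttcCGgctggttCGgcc
Cox8b promoter: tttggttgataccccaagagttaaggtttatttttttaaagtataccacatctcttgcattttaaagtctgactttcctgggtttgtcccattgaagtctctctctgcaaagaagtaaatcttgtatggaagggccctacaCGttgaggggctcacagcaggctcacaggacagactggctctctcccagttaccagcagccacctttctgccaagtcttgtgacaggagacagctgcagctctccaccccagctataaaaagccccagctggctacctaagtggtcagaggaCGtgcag
The Cox8a stretch holds 19 CG pairs and 2 copies of the ETS letters CCGGAAG on either strand, and the Cox8b stretch holds 2 CG pairs and none of the motifs searched. Cox7a2 had 20 CG pairs and Cox7a1 had 7. Over 68 promoters of members at 10 TPM or more the median was 19 CG pairs, with a range of 5 to 43, and the 3 promoters of members under 10 TPM (Cox7a1, Cox7b2 and Cox8b) had 7, 10 and 2, against a median of 7 over 32851 promoters. The table of promoters held 71 for 66 members. NRF1 letters, GCGCANGC, were in 24 of them (33.8%) and in 9.95% of all promoters. ETS letters, CCGGAAG, were in 16 (22.5%) and in 8.86% of all. YY1 letters, AAGATGG, were in 10 (14.1%) and in 6.34% of all. The NRF1 and ETS letters hold a CG pair themselves, and member promoters were richer in CG pairs than all promoters. The shares were not corrected for this. Both strands were searched, and CCGGAAG can run into AAGATGG through the shared AAG. A match is a description and not a site in use.

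For 9 of the 80 tested nuclear members, transcripts annotated as protein-coding held under 50% of the TPM, which bears on levels given as protein mRNA. The median over the 80 was 98.7%. Such transcripts held 9.17% of the TPM of Ndufa3, 12.5% of Ndufa10, 12.8% of Ndufa5, 18.5% of Ndufb4, 32.3% of Cox7b, 36.3% of Cox5b, 37.3% of Atp5f1, 40.1% of Ndufc1 and 42.5% of Atp5j. A single transcript of 343 bases marked for nonsense-mediated decay held 88.2% of Ndufa3. Nuclear members also share words with other genes of any kind. The shares were 66.5% for Atp5l, 37.5% for Atp5g2, 34.8% for Uqcrb, 34.4% for Ndufb6, 33.2% for Ndufa13 and 31.6% for Ndufb4. The gene that shared the most was Smim27 for Ndufb6, Tssk6 for Ndufa13 and the pseudogene Ndufb4c for Ndufb4. The processed pseudogene Ndufb4c had 198 to 255 TPM in the 6 libraries, against 37.1 to 53.9 TPM for Ndufb4 itself, so the level of Ndufb4 is uncertain.

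Of 6 genes for carriers, subunits and associated proteins that the symbol rule misses, 3 were negative and 3 positive, with no call. The negative ones were the subunit genes Ndufab1, Cyc1 (-0.06) and Usmg5 (-0.03), the direction of most members. The positive ones were the carrier Cycs (0.005), Atpif1 (0.05) and Minos1, which are not subunits of the complexes. Cycs, the cytochrome c that links complexes III and IV, averaged 52.0 ± 1.78 CPM in antagomir libraries and 51.9 ± 5.0 CPM in vehicle libraries (SD, n = 3 each), and Cyc1, the cytochrome c1 of complex III, 130 ± 7.70 CPM in antagomir libraries and 136 ± 4.74 CPM in vehicle libraries. Minos1, of the inner membrane organizing system, had a log2 fold change of 0.08. Ndufab1, the acyl carrier protein bound to complex I, had 82.7, 89.5 and 92.6 CPM in antagomir libraries, against 101, 134 and 128 CPM in vehicle libraries. Its groups did not overlap, with a log2 fold change of -0.45 ± 0.16 (SE, 95% interval -0.81 to -0.10, adjusted p = 0.949, edgeR).

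Assembly factors showed no common direction. Of the tested genes, 8 of 18 for complex I, 2 of 4 for complex II, 4 of 6 for complex III, 11 of 21 for complex IV and 2 of 3 for complex V had negative fold changes, and none was called. Cox15, which makes the heme of complex IV, had 48.7, 41.4 and 37.5 CPM in antagomir libraries, against 34.2, 26.1 and 31.6 CPM in vehicle libraries. It lay higher in all antagomir libraries in CPM, while in TPM the groups overlapped, with 21.3 TPM in antagomir library 3 and 24.1 TPM in vehicle library 3. In CPM it had a log2 fold change of 0.47 ± 0.19 (SE, adjusted p = 0.949, edgeR). Sco2, a copper carrier for complex IV, had -1.82 at 2.13 ± 3.27 CPM in antagomir libraries and 7.45 ± 4.47 CPM in vehicle libraries (SD, n = 3 each). In the other lists the genes with the smallest p on each side were Ndufaf4 (0.33) and Timmdc1 (-0.89) for complex I, Sdhaf2 (0.18) and Sdhaf4 (-0.36) for complex II, Uqcc1 (0.14) and Ttc19 (-0.18) for complex III, and Atpaf1 (0.23) and Atpaf2 (-0.16) for complex V, as log2 fold changes.

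The 23 genes of mitochondrial transcription and RNA handling were split into 11 negative and 12 positive, with a median of 0.01, unlike the 13 mitochondrial genes they serve, which were all negative. This contrast was not tested. Tfam, which packages and transcribes the mitochondrial genome, averaged 34.6 ± 1.84 CPM in antagomir libraries and 33.8 ± 5.70 CPM in vehicle libraries (SD, n = 3 each), and Polrmt, the mitochondrial RNA polymerase, 42.9 ± 1.93 CPM in antagomir libraries and 37.6 ± 5.16 CPM in vehicle libraries. Fastkd1, which acts on mitochondrial mRNA stability, had 1.16, 2.48 and 2.04 CPM in antagomir libraries, against 5.29, 5.50 and 3.91 CPM in vehicle libraries, a log2 fold change of -1.37 ± 0.53 (SE, adjusted p = 0.949, edgeR). Its groups did not overlap, at a low level.

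Of 12 nuclear regulators of these genes, 7 were negative and 5 positive. Ppargc1a, the coactivator PGC-1alpha that drives mitochondrial biogenesis, had 66.3, 60.8 and 58.8 CPM in antagomir libraries, against 71.4, 76.1 and 81.8 CPM in vehicle libraries. The groups did not overlap, and the log2 fold change was -0.30 ± 0.14 (SE, 95% interval -0.63 to 0.02, adjusted p = 0.949, edgeR). Nrf1 averaged 51.0 ± 11.97 CPM in antagomir libraries and 43.6 ± 8.29 CPM in vehicle libraries (SD, n = 3 each). Of 13 genes of the tricarboxylic acid cycle, 8 were negative and 5 positive, with a median of -0.15. Dld, the dihydrolipoamide dehydrogenase, had 104, 94.6 and 97.2 CPM in antagomir libraries, against 118, 134 and 125 CPM in vehicle libraries, a log2 fold change of -0.35 ± 0.13 (SE, adjusted p = 0.949, edgeR). Idh3a, an isocitrate dehydrogenase subunit, had 0.10.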

How the data were processed

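RNA was extracted with PicoPure, made into cDNA with SMART-Seq v4, which does not mark strand, and sequenced in 100-base pairs, per the labels' protocols. The authors deposited estimated counts and TPM per transcript. Tools named in the submitters' processing notes are kallisto and sleuth, with the build mm10, and their versions are not given in the sources used here. Identifiers of 98294 of 99567 transcripts (98.7%) matched GENCODE M21 (GRCm38), and the rest held 0.524 to 0.586% of the counts. Counts and TPM were summed per gene and counts rounded. edgeR 4.0.16 (R 4.3.3) fitted treatment group over 15012 genes that passed filterByExpr (minimum count 10), with TMM scaling, robust quasi-likelihood tests and Benjamini-Hochberg adjustment at 0.05. The coefficient of biological variation was 36.2%. Library pairs differed by 23.6 to 98.6 times the sampling noise, so no library was taken as a copy of another. Alternatives were DESeq2 1.42.0, limma 3.58.1 on log2(TPM + 1), other scalings and filters, a replicate block and leaving out each library. Members and lists were chosen with earlier results of these data known. Named nuclear genes were the highest and lowest level and the 2 smallest p in each complex, all genes of complex II, subunits made by several genes, and in each pathway list the smallest p on each side; others, such as Ndufa2, Ndufb4 and Atp5j, were chosen after their values were seen. The mitochondrial ribosomal RNAs mt-Rnr1 and mt-Rnr2 were looked for, and neither had a transcript among those matched.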

Additional observations from a re-analysis of the deposited data

How the results depend on the processing

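No member was called under any setting, and DESeq2 called 1 gene of the whole table where edgeR called 0. Members under an unadjusted p of 0.05 numbered 3, against 0 by limma on TPM and 0 to 4 when single libraries were left out (0 without vehicle replicate 1, vehicle replicate 3 or antagomir replicate 3); the cause was not tested. Leaving out single libraries moved the median log2 fold change of nuclear complex I members between -0.23 (without antagomir replicate 1) and -0.07 (-0.0704, without antagomir replicate 2), and that of mt-Nd3 between -0.26 and 0.01 (0.0074, without antagomir replicate 3). The medians of other nuclear members came nearer 0. They ran from -0.23 to -0.02 for complex III, -0.28 to -0.01 for complex IV and -0.22 to -0.03 for complex V. By limma on TPM 69 of 93 members were negative, the mitochondrial median was -0.18 and the nuclear median -0.04, beside 0.04 over all genes tested. Other scalings, filters and the added copies left the mitochondrial median between -0.27 and -0.23 and the nuclear median between -0.14 and -0.10. Same-numbered libraries deviated together only weakly over all genes (correlations 0.195, 0.075 and 0.028), against -0.186 to 0.14 between differently numbered ones. The numbers are not taken to pair them. Both libraries numbered 1 were the highest of their group in the median deviation of nuclear members (antagomir 0.11, vehicle 0.13). The same held for mitochondrial members (antagomir 0.06, vehicle 0.34), so a pairing is not excluded. With a replicate block 0 members were called, 85 were negative, and the medians were -0.25 for mitochondrial and -0.12 for nuclear members. Depth limits the rare forms Cox6a2, Cox7a1 and Cox4i2, and shared sequence limits mt-Co1, mt-Co2, mt-Co3, mt-Atp6, mt-Nd3, mt-Nd4 and mt-Nd4l.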
